A study of Mus musculus with 18 samples.

Results

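High and low tethering of extracellular matrix (ECM) were compared on stiff gels, as the log2 fold change of 3 stiff, high AHA libraries against 3 stiff, low AHA libraries, in 13438 protein-coding genes. These 6 libraries were chosen by their condition labels, out of 18 libraries in the series, and no measured value entered the choice. Every group held E14 mouse embryonic stem cells (mESCs), a wild-type line from the 129 strain, kept with serum and LIF for 24 h on fibronectin-coated StemBond gels. These are polyacrylamide hydrogels in which an added co-monomer, AHA (6-acrylamidohexanoic acid), supplies the groups that bind ECM protein. The paper reports firmer tethering with more AHA, with rupture forces that levelled off at high AHA. It also reports weaker mESC attachment on low AHA gels, at either stiffness. Low AHA was 16 mM, mid AHA 48 mM and high AHA 80 mM, and the stiff gels were near 160000 Pa. The same AHA step on soft gels (near 750 Pa) compared other libraries and is given beside the stiff comparison. Both came from 1 fit over 17 libraries, which set the scaling, the gene filter and the spread. The stiff p-values therefore depend on the soft libraries too. The comparison asks whether firmer ECM tethering alters transcription when the gel itself is already stiff. The cells were 1 line, and the labels did not say whether replicates came from separate cultures, so p-values measure the spread between these libraries, which may be technical.

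Cells hold on to fibronectin through integrins, receptors that cross the membrane and are linked inside the cell to actin by focal adhesion proteins such as talin and vinculin. Tension on these links feeds actin assembly, and the transcription factor SRF and the co-activator YAP respond to actin and to tension by switching on genes of the contractile cytoskeleton and the matrix. In mESCs the pluripotency factors, among them Pou5f1 (Oct4), Sox2 and Nanog, keep the undifferentiated state, which LIF supports through STAT3.

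Gene counts in the 6 libraries ranged from 5850621 to 9290261, with 69.7 to 71.6% in protein-coding genes and 0.654 to 0.713% in ERCC spike-in RNAs. Replicates on stiff gels differed by more than counting noise (over 9 pairs, chi-square divided by its degrees of freedom was 1.97 to 2.80). Of 7 library measures, the share of counts in protein-coding genes was 70.9% ± 0.803 at high and 69.9% ± 0.166 at low AHA (SD, n = 3 each), the share of ambiguous reads was 1.36% ± 0.0984 and 1.56% ± 0.0967, and the share of reads outside genes was 23.9% ± 0.18 and 24.3% ± 0.211. In these 3 measures the groups did not overlap, and none passed correction (adjusted p = 0.233; raw p = 0.1, the smallest that an exact permutation test of 3 against 3 can give, two-sided). The cells matched their label: the 10 embryonic stem cell markers summed to between 2838 and 2920 CPM at high AHA and between 2827 and 2893 CPM at low AHA, and none of them was at 0. CPM are counts scaled to a common library size with TMM factors over the tested genes.

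On stiff gels, raising AHA from low to high changed 1 gene past the threshold. Map1b (ENSMUSG00000052727, chromosome 13, 99421446 to 99516540, GRCm38), which encodes a microtubule-associated protein known for its part in axon growth, was lower at high AHA. Its level was 436.0, 448.0 and 439.6 CPM in the low AHA libraries, 412.3, 391.4 and 440.1 CPM at mid AHA, and 390.5, 372.9 and 372.2 CPM at high AHA. The high and low libraries did not overlap, and the mid libraries spanned the gap between them. The log2 fold change was -0.22 ± 0.045 (SE), a level 14.1% lower (a change of -14.1%), with an adjusted p of 0.0342 (edgeR quasi-likelihood test). Map1b was thus 0.00744% of all genes tested, and 0 genes were called higher. With 1 stiff library left out the count was 0 to 15 genes (15 without high AHA replicate 1, 7 without low AHA replicate 1, 0 without any of the other 4), and it was 9 with a minimum of 2 counts and 11 with only the 6 libraries compared. At an unadjusted p under 0.05 there were 812 genes (6.043%), of which 384 were higher and 428 lower at high AHA. The call of Map1b was absent with DESeq2 (adjusted p = 0.278), and it was lost in 4 of the 6 fits that left out 1 stiff library: low AHA replicate 2 (adjusted p = 0.307) or replicate 3 (0.0819), or high AHA replicate 2 (0.263) or replicate 3 (0.324). Over all 6 fits the log2 fold change stayed between -0.24 and -0.21.

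The size of effect that this comparison could have shown depended on the level of the gene. For genes at 100 CPM or more (2508 genes), the 95% interval of the log2 fold change lay within 1.5-fold in either direction for 99.8% of them. Between 10 and 100 CPM (6720 genes), 92.0% lay within 1.5-fold. Under 10 CPM (4210 genes), 7.82% lay within 1.5-fold and 49.1% within 2-fold, so that smaller changes were not detectable at this depth for many of them. The median absolute log2 fold change of the 9228 genes at 10 CPM or more was 0.069 on stiff and 0.087 on soft gels.

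**Figure D1:**
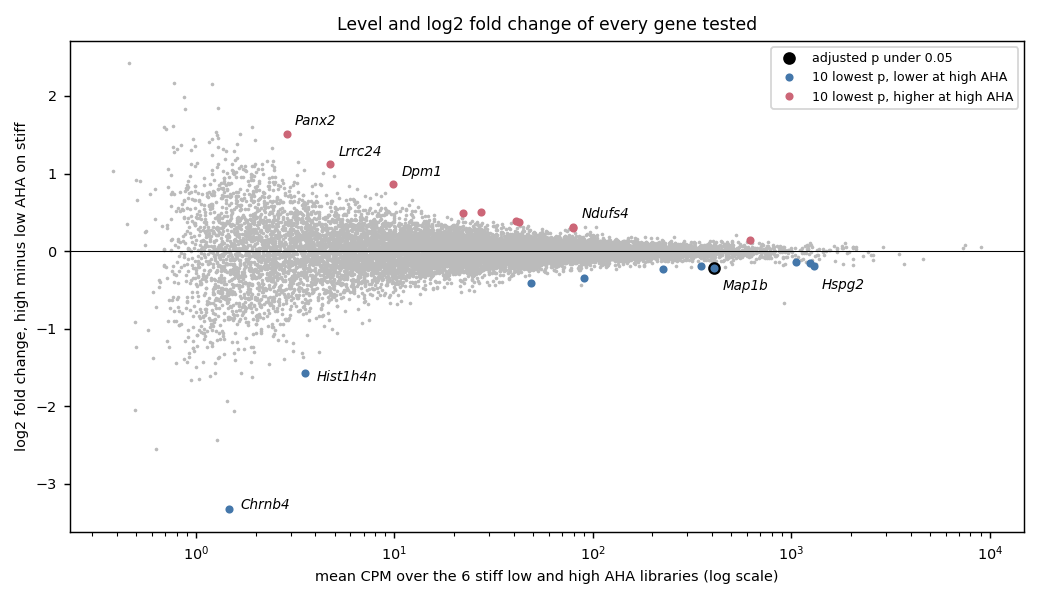
Each grey point is 1 of the 13438 genes tested, with its mean CPM over the 6 stiff low and high AHA libraries (x axis, log scale) and its log2 fold change of high against low AHA on stiff gels (y axis). The black point is Map1b (-0.22), the gene with an adjusted p under 0.05, and the coloured points are the 10 genes lower (blue) and the 10 genes higher (red) at high AHA with the lowest p-values, from Chrnb4 at -3.33 to Panx2 at 1.51.

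After Map1b, the genes with the lowest p-values on the lower side did not pass correction. Perlecan, the large heparan sulphate proteoglycan of basement membranes, is encoded by Hspg2 (ENSMUSG00000028763, chromosome 4, 137468769 to 137570630). Hspg2 stood at 1417, 1397 and 1351 CPM at low AHA, 1360, 1320 and 1380 CPM at mid AHA and 1298, 1146 and 1190 CPM at high AHA, a log2 fold change of -0.20 ± 0.042 (adjusted p = 0.112). Every high AHA library lay below every low AHA library, and Hspg2 was called in 7 of the 17 alternatives run. Fn1 (chromosome 1, 71585520 to 71653200), the cells' own fibronectin gene, had 1122, 1078 and 1121 CPM at low and 1041, 991.7 and 977.2 CPM at high AHA (-0.14 ± 0.037, adjusted p = 0.21). The groups again did not overlap, and the mid AHA mean of 1083 ± 31.5 CPM (SD, n = 3) lay between them. Fibronectin protein also coated the gels, and the libraries read only the cells' transcripts.

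Ptpn14 (chromosome 1, 189728268 to 189876695), which encodes a phosphatase that binds YAP, had 247.1, 238.8 and 245.6 CPM at low and 204.9, 196.1 and 223.8 CPM at high AHA (-0.23 ± 0.055, adjusted p = 0.129). The mid AHA mean was 221 ± 15.6 CPM, between those of the ends.

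Among the others were a zinc finger gene, a nicotinic receptor subunit, a histone and a deubiquitinase. Zfp462 was 374 ± 16.9 CPM at low and 328 ± 9.83 CPM at high AHA (SD, n = 3 each, adjusted p = 0.129), and it was the only gene among the 10 that lay on the same side of 0 on soft gels (-0.19). Usp25, a deubiquitinase gene, was 55.6 ± 3.45 and 41.6 ± 2.83 CPM (adjusted p = 0.21). Chrnb4, which encodes the beta-4 subunit of nicotinic acetylcholine receptors, had 14, 14 and 13 raw counts at low AHA, 5, 7 and 5 at mid AHA and 2, 0 and 2 at high AHA. Its fitted log2 fold change of -3.33 ± 0.72 (adjusted p = 0.0567) rests on these few counts and depends on the prior count of the fit, and Chrnb4 was called in 8 of the 17 alternatives. Map1b was called in 10. The histone H4 gene Hist1h4n likewise had 26, 37 and 15 raw counts at low and 12, 7 and 9 at high AHA.

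**Figure D2:**
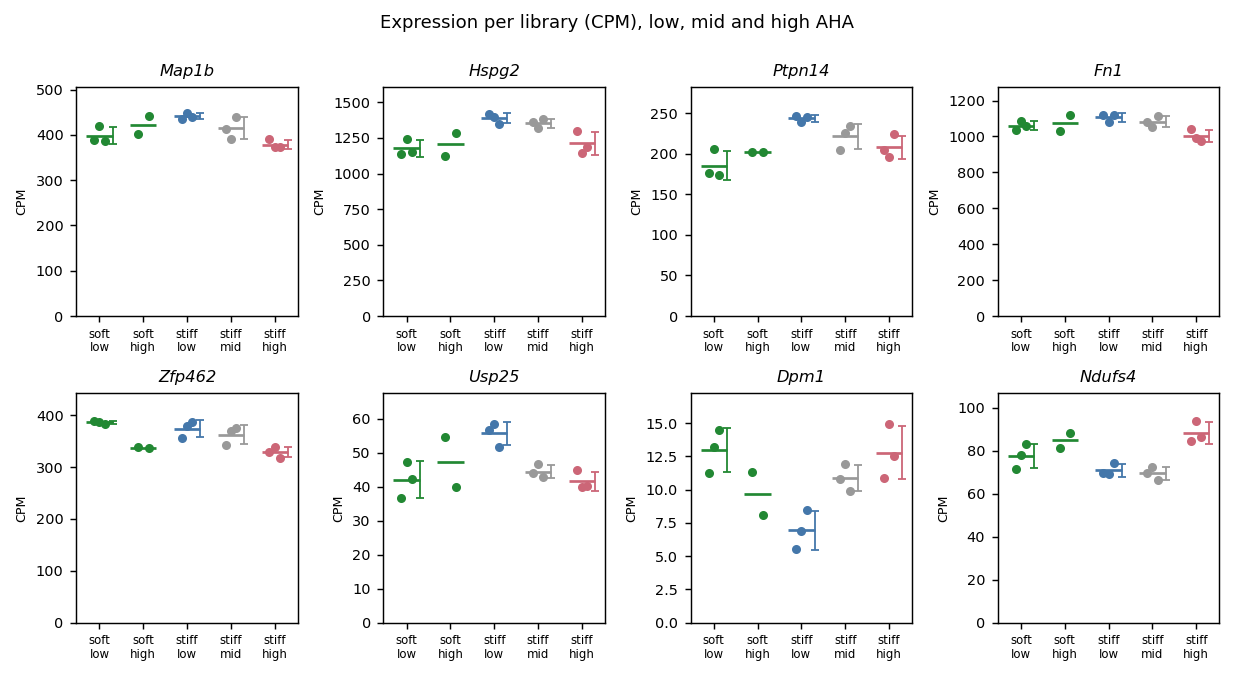
CPM per library (points; line, group mean; bar, SD for groups of 3) for 8 genes in soft, low and high AHA (green; soft, high AHA has 2 libraries) and in stiff, low (blue), mid (grey) and high AHA (red). In the top row and in Zfp462 and Usp25, the 3 stiff, high AHA points lie below the 3 stiff, low AHA points; in Dpm1 and Ndufs4 they lie above.

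Among genes higher at high AHA, 0 passed correction. Dpm1, which encodes the catalytic subunit of dolichol-phosphate mannose synthase, an enzyme of protein glycosylation, had 5.51, 6.90 and 8.45 CPM at low AHA, 10.8, 11.9 and 9.92 CPM at mid AHA and 10.9, 14.9 and 12.6 CPM at high AHA (0.86 ± 0.22, adjusted p = 0.206). Its mid AHA libraries were near those at high AHA. Ndufs4, a subunit of mitochondrial complex I, had 69.5, 69.0 and 74.3 CPM at low AHA, 69.8, 72.4 and 66.2 CPM at mid AHA and 84.4, 93.9 and 86.6 CPM at high AHA (0.31 ± 0.082, adjusted p = 0.219). Here the mid AHA libraries stayed with the low ones.

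Slc1a5, which encodes a transporter of glutamine and other neutral amino acids, was 18.6 ± 1.27 CPM at low, 22.1 ± 1.71 at mid and 25.8 ± 1.68 at high AHA (adjusted p = 0.359). Stoml1, a stomatin family gene, was 22.5 ± 3.62 and 32.2 ± 3.09 CPM (adjusted p = 0.219), and Dek, which encodes a chromatin protein, was 592 ± 23.0 and 651 ± 11.2 CPM (adjusted p = 0.347) at low and high AHA. Exons of other genes on the opposite strand covered 16% of Dek. Of the 20 genes with the lowest p-values, 10 on each side, the mid AHA mean lay between the ends in 19. Among all genes tested it did so in 34.0%, and genes picked for a wide gap between the ends have more room for the middle group. On soft gels, 1 of the 10 lower and 6 of the 10 higher genes lay on the same side of 0 as on stiff gels, against 52.7% of all genes.

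Most genes of the matrix and basement membrane had values slightly below 0 on stiff gels, and 0 of them passed the test. Of 28 tested genes of the matrix and basement membrane, 24 lay below 0, with a median log2 fold change of -0.069, where the median over all genes tested was 4.9e-05 and 6718 of 13438 lay below 0. In 7 of the 28 all 3 high AHA libraries lay below all 3 low AHA libraries, which held for 5.53% of all genes. The 7 were Hspg2, Fn1, Col1a2 (collagen I), Thbs1 (thrombospondin), Agrn (agrin), Lamc1 (laminin gamma-1) and Sparc. The merged exons of Hspg2, Fn1, Col1a2, Agrn and Lamc1 span 8078 bases or more, while those of Thbs1 and Sparc are shorter. Among genes that long at 5 CPM or more, 203 of 2143 separated downward and 58.9% lay below 0. In the opposite direction, 0 of the 28 members had all high AHA libraries above all low AHA libraries, against 5.34% of all genes. On soft gels the same 28 genes had a median of 0.14, 22 lay above 0, and 2, Serpinh1 and Col4a1, were called higher, though not without soft, high AHA replicate 2. The median stayed below 0 on stiff gels in all 17 alternatives run, from -0.11 (without high AHA replicate 1) to -0.046 (without high AHA replicate 2).

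Of the integrin receptor genes, 0 were called. The 20 tested subunits had a median of 0.016, with 12 above and 8 below 0 and values from -0.42 to 0.74 (Itgb2, adjusted p = 0.93). The intervals of 12 lay within 1.5-fold, and the others were less precise. In 3 subunits all high AHA libraries lay below all low ones (5.53% of all genes), and in 0 above (5.34%). Itgb1, the beta-1 subunit shared by many receptors, had 470.0, 445.3 and 453.3 CPM at low and 458.1, 464.2 and 479.0 CPM at high AHA, so that the groups overlapped (0.033 ± 0.043, 95% interval -0.053 to 0.12). Itga5, its partner in the fibronectin receptor, had 170 ± 2.58 and 170 ± 7.72 CPM (SD, n = 3 each, interval -0.12 to 0.12). Itgav, a subunit of another group of fibronectin and vitronectin receptors, had 134.2, 114.8 and 129.1 CPM at low and 107.4, 110.8 and 114.7 CPM at high AHA (-0.19 ± 0.070, adjusted p = 0.595). Its highest high AHA library and lowest low AHA library differed by less than 1 CPM.

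Of 35 focal adhesion plaque genes, 22 lay below 0 and the median was -0.043 (-0.019 without high AHA replicate 2 and -0.027 without low AHA replicate 3). Talin-1, the protein that couples integrins to actin, is encoded by Tln1, which had 517.9, 546.5 and 500.9 CPM at low and 489.9, 451.4 and 479.3 CPM at high AHA (-0.14 ± 0.043, adjusted p = 0.477). Vcl, the vinculin gene, had 320.1, 330.2 and 306.0 CPM at low and 297.6, 291.5 and 288.8 CPM at high AHA (-0.12 ± 0.047, adjusted p = 0.661). The groups of both genes did not overlap, and exons of other genes on the opposite strand covered 26% of Vcl. In 4 of the 35 genes all high AHA libraries lay below all low ones (5.53% of all genes), and in 1 above (5.34%). Ptk2, which encodes the focal adhesion kinase, lay on the other side, again without overlap, with 168.6, 171.7 and 165.6 CPM at low and 172.8, 179.7 and 189.8 CPM at high AHA (0.10 ± 0.059, adjusted p = 0.867).

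The targets of SRF and YAP had medians just below 0. The median was -0.045 over 23 SRF targets (18 below 0) and -0.046 over 22 YAP targets (16 below 0), and 0 members of either list were called. With 1 library left out, the SRF median ran to -0.083 (without low AHA replicate 1) and -0.072 (without high AHA replicate 3), and the YAP median to -0.0027 (without high AHA replicate 2) and -0.026 (without low AHA replicate 1). Among SRF targets, Tagln2 (transgelin-2) was 193 ± 6.28 CPM at low and 168 ± 10.5 CPM at high AHA (adjusted p = 0.347), and the actin crosslinker gene Flna was 1436 ± 16.8 and 1337 ± 11.3 CPM (adjusted p = 0.489). Both had groups that did not overlap. All high AHA libraries lay below all low ones in 4 of the 23 SRF targets (5.53% of all genes) and above in 0 (5.34%). Among YAP targets, Ptpn14 (above), Myof (-0.23), Asap1 (-0.21) and Lats2 (-0.23) had all high AHA libraries below all low ones (5.53% of all genes), and Igfbp3 had them above (5.34%). Igfbp3 encodes an insulin-like growth factor binding protein and had 154 ± 4.01 CPM at low and 174 ± 13.4 CPM at high AHA (0.17 ± 0.062, adjusted p = 0.556). On soft gels Igfbp3 rose (0.31, adjusted p = 0.0114), a call lost without soft, high AHA replicate 2. The classical YAP targets Ccn1 and Ccn2 had -0.02 and 0.06 on stiff gels. Among genes of the contractile cytoskeleton, the myosin gene Myh14 was 39.8 ± 1.34 CPM at low and 49.4 ± 0.88 CPM at high AHA (0.31 ± 0.11, adjusted p = 0.52).

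Map1b was the called member of 34 tested microtubule genes, of which 19 lay above and 15 below 0, with a median of 0.013. The median of 17 genes of intermediate filaments and the nuclear lamina was 0.0088. In this list Plec, which encodes the crosslinker plectin, was 1243 ± 8.25 CPM at low and 1125 ± 49.5 CPM at high AHA (-0.14 ± 0.039, adjusted p = 0.299), whereas Lmnb1 (lamin B1) was 1172 ± 49.8 and 1241 ± 27.4 CPM (0.081 ± 0.035, adjusted p = 0.753). The groups did not overlap in either gene. Of the 17 genes, 1 had all high AHA libraries below all low ones (5.53% of all genes) and 3 had them above (5.34%).

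**Figure D3:**
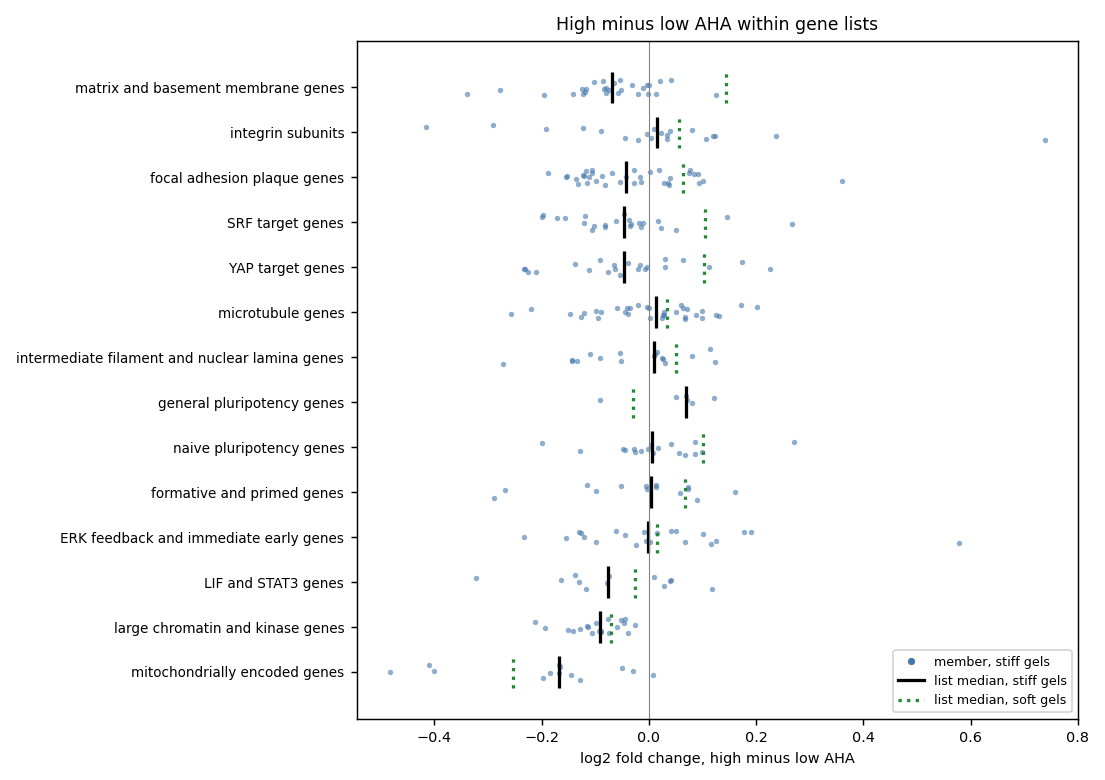
Log2 fold change of high against low AHA on stiff gels (x axis) for each tested member (points) of 14 gene lists (rows of the y axis, vertical jitter only to separate points), with the list median on stiff gels (black) and on soft gels (dotted green). The stiff median of matrix and basement membrane genes was -0.069 and the soft median 0.14; for mitochondrially encoded genes both medians were below 0.

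Of the pluripotency genes, 0 were called on stiff gels. Pou5f1 had 512.9, 513.3 and 518.3 CPM at low and 518.2, 597.6 and 567.4 CPM at high AHA (0.12 ± 0.042, adjusted p = 0.556), so that the lowest high AHA library was level with the low AHA group. Sox2 had 297.2, 284.6 and 274.9 CPM at low and 292.8, 311.9 and 284.4 CPM at high AHA (0.050 ± 0.050, adjusted p = 0.939). Of 6 general pluripotency genes, 5 lay above 0 (median 0.070), and the intervals of the 6 lay within 1.5-fold. Exons of other genes on the opposite strand covered 14.1% of Pou5f1. Nanog had 103.9, 105.7 and 107.2 CPM at low and 100.7, 102.4 and 103.2 CPM at high AHA, and its groups, although they did not overlap, differed by only 3.31% (a change of -3.31%, 95% interval of the log2 fold change -0.19 to 0.089, adjusted p = 0.965).

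The orphan nuclear receptor gene Esrrb had 239.9, 246.2 and 239.1 CPM at low and 249.3, 228.6 and 247.1 CPM at high AHA, with an interval of -0.095 to 0.10. Klf4 was 104 ± 9.91 and 109 ± 1.75 CPM (interval -0.083 to 0.20) and Zfp42 (Rex1) 182 ± 11.1 and 195 ± 9.20 CPM (interval -0.011 to 0.21). In all 3 the groups overlapped. Over 18 naive pluripotency genes the median was 0.0057, with 10 above and 8 below 0, and 17 of the 18 intervals lay within 1.5-fold. Over 14 genes of the formative and primed states, which follow the naive state, the median was 0.0048, with 7 on each side of 0. The members of lowest p in each direction were Dnmt3b (0.073 ± 0.039, adjusted p = 0.839) and Foxd3 (-0.27 ± 0.13, adjusted p = 0.813).

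Of the signalling genes, 0 were called on stiff gels. The median was -0.0020 over 22 ERK feedback and immediate early genes, 0.018 over 18 Nodal and BMP genes (0.063 without low AHA replicate 3) and -0.045 over 17 Wnt genes. Single members ranged more widely, up to 0.58 in the immediate early gene Fosb (adjusted p = 0.86) and down to -1.25 among Wnt genes. With 1 library left out, Fosb ran from 0.245 to 0.84. The 12 genes of LIF and STAT3 signalling had a median of -0.076, with 7 below 0, and in 3 of them (Bcl3, Lifr and Il6st) all high AHA libraries lay below all low ones, which held for 5.53% of all genes. The median was -0.023 without low AHA replicate 1 and -0.050 without low AHA replicate 2. In 3 of the Nodal and BMP genes all high AHA libraries lay above all low ones, against 5.34% of all genes. Bcl3, a STAT3 target in mESCs, had 51.3, 49.8 and 51.8 CPM at low, 39.6, 37.3 and 42.9 CPM at mid and 42.7, 38.3 and 40.8 CPM at high AHA (-0.32 ± 0.11, adjusted p = 0.489). Lifr, the LIF receptor gene, was 121 ± 4.51 and 108 ± 5.96 CPM (adjusted p = 0.693). Merged exons span 10776 bases in Lifr and 11099 bases in Il6st. Among genes of 8078 bases or more at 5 CPM or more, 203 of 2143 had all high AHA libraries below all low ones.

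Of the markers of other cell types, 0 were called on stiff gels. Summed over each list, the ranges overlapped between high and low AHA: 514.5 to 558.2 and 519.4 to 595.4 CPM for 10 primitive endoderm markers, 25.8 to 28.2 and 19.0 to 30.6 CPM for 8 mesendoderm markers, 12.5 to 19.8 and 15.0 to 20.5 CPM for 7 neuroectoderm markers, 110.3 to 122.9 and 116.5 to 129.4 CPM for 6 trophoblast markers, 174.4 to 207.0 and 192.9 to 216.6 CPM for 8 fibroblast markers, and 29.6 to 33.0 and 25.4 to 38.7 CPM for 7 two-cell-like markers. In the primitive endoderm list most counts came from the basement membrane genes Col4a1 and Lama1, while Gata6 stood at 2.46 to 3.53 CPM and Sox17 at 0.921 to 2.34 CPM over the 6 libraries. In bulk libraries, fewer cells of a type and less RNA per cell cannot be told apart.

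The AHA step acted differently on stiff and on soft gels in 6 genes (0.0446% of those tested; edgeR quasi-likelihood test of the difference between the 2 log2 fold changes). In each, the value on stiff gels lay below that on soft gels. On soft gels 34 genes were called (0.253%), 29 of them higher and 5 lower at high AHA, a count that ran from 2 (without soft, high AHA replicate 2) to 69 (without replicate 3) when 1 soft library was left out, with 8 without soft, low AHA replicate 1. Without soft, high AHA replicate 2 the calls of Tagln (adjusted p = 0.0956) and Tpm1 (0.128) on soft gels were lost, and without soft, low AHA replicate 1 that of Tpm1 (0.0582). The 2 genes still called without soft, high AHA replicate 2 were Cald1 and Vim, so every other soft call named here, those of Serpinh1, Col4a1, Igfbp3, Krt19 (adjusted p = 0.306) and Phldb2 included, was lost in that fit. With soft, high AHA replicate 2 or 3 left out, that group held 1 sample, which is assumed to vary like the other groups. Tagln (transgelin, chromosome 9, 45929619 to 45936058), an actin-binding SRF target, had 231.6, 259.5 and 219.3 CPM in stiff, low AHA and 208.4, 226.9 and 217.8 CPM in stiff, high AHA, against 132.4, 146.2 and 147.7 CPM in soft, low AHA and 196.2 and 181.2 CPM in soft, high AHA. The stiff groups overlapped and the soft groups did not, with a log2 fold change of -0.12 ± 0.056 on stiff and 0.41 on soft gels (adjusted p of the difference 0.000106). Exons of other genes on the opposite strand covered 68% of Tagln.

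Cald1 (caldesmon, chromosome 6, 34598500 to 34775473), which regulates actomyosin, had 707.3, 710.6 and 739.5 CPM in stiff, low and 711.7, 693.9 and 724.5 CPM in stiff, high AHA, against 452.1, 519.2 and 537.1 CPM in soft, low and 648.3 and 648.7 CPM in soft, high AHA. The values were -0.018 ± 0.043 on stiff and 0.37 on soft gels (adjusted p of the difference 0.000264). Tpm1 (tropomyosin, chromosome 9, 67022590 to 67049406) had 1072, 1148 and 1104 CPM in stiff, low and 1041, 1025 and 1073 CPM in stiff, high AHA, against 740.8, 785.1 and 830.6 CPM in soft, low and 936.3 and 907.6 CPM in soft, high AHA (-0.081 and 0.23, adjusted p of the difference 0.000355). In these 3 genes the soft, high AHA libraries stayed below every stiff, low and every stiff, high AHA library.

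Phldb2 (a microtubule anchoring protein at focal adhesions) and Myof (myoferlin, a membrane repair protein) had differences of -0.47 and -0.48 (adjusted p = 0.0422 for each). Myof is the sixth gene called and was named after its values were seen. On stiff gels Phldb2 was 148 ± 2.98 CPM at low and 139 ± 10.6 CPM at high AHA, and Myof 107 ± 2.31 and 90.4 ± 6.93 CPM, of which Myof had groups that did not overlap. Map1b was lower at high AHA on stiff gels (-0.22) and had a positive value on soft gels (0.083 ± 0.050, adjusted p = 0.685), and the difference of -0.30 was called (adjusted p = 0.0422). The soft side of these tests used 2 high AHA libraries after the one with the highest ERCC share was set aside. With another of the 3 set aside instead, an alternative chosen after seeing the data, the difference was called in 9 genes (3 of the 6) without replicate 2 and in 2 genes without replicate 3.

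**Figure D4:**
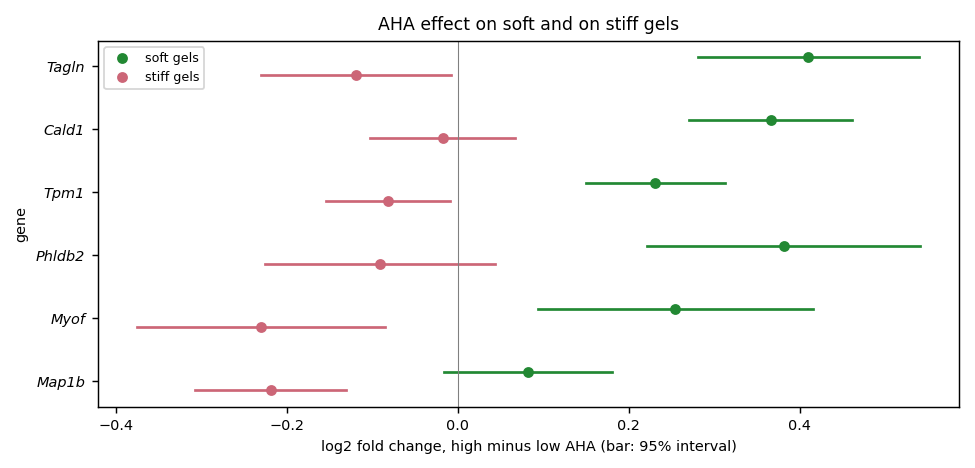
Log2 fold change of high against low AHA (x axis; point, estimate; bar, 95% interval) on soft (green) and stiff gels (red) for the 6 genes whose AHA effect differed between them. The soft estimates run from 0.083 (Map1b) to 0.41 (Tagln) and the stiff estimates from -0.23 (Myof) to -0.018 (Cald1).

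Across the 9228 genes at 10 CPM or more, log2 fold changes on stiff and soft gels had a Pearson correlation of 0.0448 and a Spearman correlation of 0.0569. This is a correlation across genes, which are not independent replicates, and the points share libraries within each axis. Among genes called higher on soft gels, Vim (vimentin) was 609 ± 6.41 and 620 ± 7.13 CPM on stiff gels (0.026 ± 0.041), and Krt19 (keratin 19) was 155 ± 7.16 and 169 ± 8.38 CPM (0.12 ± 0.061, adjusted p = 0.814).

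Genes with long transcripts were lower at high AHA on stiff gels more often than genes with short ones. When the 10714 genes at 5 CPM or more were divided into 5 groups of about equal size by exonic length, the median log2 fold change was 0.015 in the shortest group and -0.023 in the longest, and 44.4% and 58.9% of their genes lay below 0. In the longest group (8078 bases or more), 136 genes were lower and 35 higher at an unadjusted p under 0.05, while in the shortest these were 47 and 86. On soft gels the medians were 0.011 and -0.00066. The 10 genes with the lowest p-values on the lower side had a median exonic length of 10196 bases, the 10 on the higher side 3392 bases, and all genes tested 4497 bases.

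This dependence on length was a property of single libraries as well as of the groups. Per doubling of exonic length, log2 CPM differed from the gene's own mean by -0.0068, -0.0010 and 0.0047 in the stiff, low AHA libraries, by 0.00066, -0.026 and -0.018 in the stiff, high AHA libraries and by -0.0032, -0.014 and 0.019 at mid AHA. High AHA replicate 1 thus resembled the low AHA libraries, and the slopes of the mid AHA libraries lay on both sides of 0, without reaching those of high AHA replicates 2 and 3. Map1b (15846 bases), Hspg2 (14307 bases) and Fn1 (11685 bases) are among the genes with a large exonic length. With offsets that removed each library's trend on length and GC content, their log2 fold changes were -0.17 (adjusted p = 0.175), -0.15 (adjusted p = 0.0919) and -0.11 (adjusted p = 0.488), and 0 genes were called on stiff gels, with 788 at an unadjusted p under 0.05. The median of the matrix and basement membrane genes was then -0.062 and that of SRF targets -0.055.

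**Figure D5:**
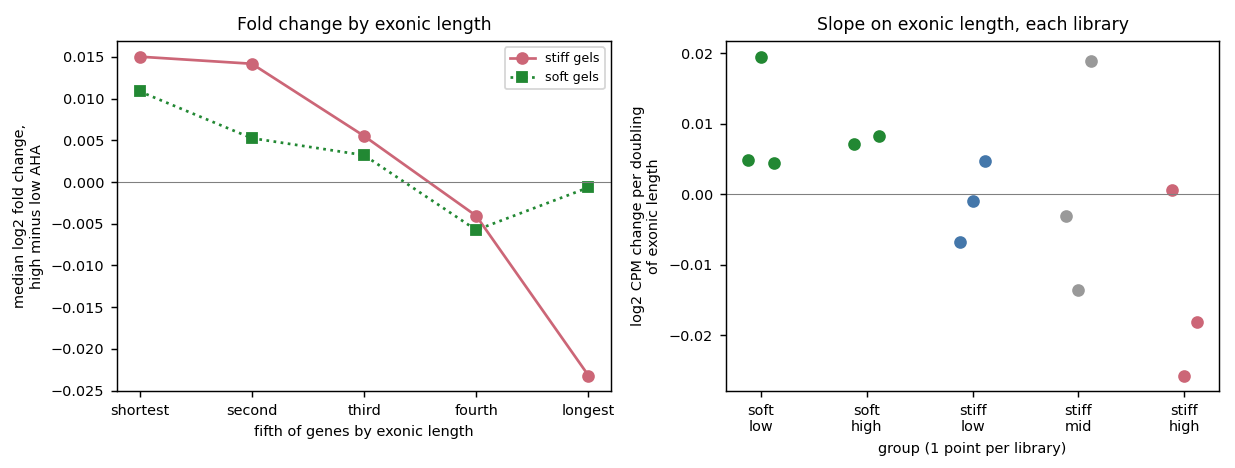
Left, median log2 fold change of high against low AHA (y axis) in 5 groups of genes by exonic length (x axis) on stiff (red) and soft gels (green). Right, change of log2 CPM per doubling of exonic length (y axis) in each library (1 point each), where stiff, high AHA replicates 2 and 3 lie lowest, at -0.026 and -0.018.

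A list of 20 large chromatin regulator and kinase genes was chosen, like the other lists, with earlier results of these data known. Many of its members have a large exonic length. All 20 members lay below 0, with a median of -0.092 and 0 called. In 8 of them the high AHA libraries all lay below the low ones, against 5.53% of all genes and 203 of the 2143 genes in the longest group above, of which 58.9% lay below 0. Kmt2a, a histone H3 lysine methyltransferase gene, had 316.2, 347.4 and 345.0 CPM at low and 314.3, 284.7 and 268.8 CPM at high AHA (-0.21 ± 0.059, adjusted p = 0.347). High AHA replicate 1 again lay next to the low AHA group. With the length and GC offsets the list median was -0.052, and on soft gels it was -0.071. Trrap, which encodes the scaffold shared by the SAGA and TIP60 acetyltransferase complexes, was 377 ± 7.66 CPM at low, 403 ± 12.3 CPM at mid and 335 ± 9.11 CPM at high AHA (adjusted p = 0.299), while the median of 29 genes of these complexes was 0.020.

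The 13 protein-coding genes of the mitochondrial genome, a list added after the data were seen, lay below 0 in 12 cases, with a median of -0.17 and 0 called. Mitochondrial genes took 7.17, 6.20 and 5.55% of gene counts at high AHA and 6.73 to 6.79% at low AHA (6.31% ± 0.817 and 6.77% ± 0.0351; exact permutation p = 0.4, two-sided, adjusted p = 0.56). High AHA replicate 1 was above all low AHA libraries and the other 2 below them. Without that replicate the median was -0.35 and 5 mitochondrial genes, mt-Nd6, mt-Nd2, mt-Co2, mt-Nd1 and mt-Nd5, were among the 15 genes called. Without high AHA replicate 3 the median was -0.082 and 0 genes were called. What sets the 3 high AHA libraries apart from each other was not tested. By the column headers, the stiff, low AHA libraries share a leading index barcode that no stiff, high AHA library carries. High AHA replicate 1 shares its leading index with the stiff, mid AHA libraries, while replicates 2 and 3 share another. AHA and index cannot be told apart in this comparison.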

How the data were processed

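Total RNA was sequenced after library preparation with a pico-input kit. Per the labels, the authors trimmed reads with Trim Galore 0.4.4, aligned them with GSNAP (2015-09-29) to GRCm38/mm10 and used HTSeq for counting over Ensembl genes, and the deposited values are raw counts without normalisation. Whether counting used strand was not given in the sources used here. The 5 HTSeq summary lines (61.5 to 64.0% of each column) stayed out of library sizes and tests. GENCODE M21 named 45143 of 46078 gene identifiers, 21519 of them protein-coding.

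After filterByExpr (minimum count 10) and TMM scaling, protein-coding genes were fitted in edgeR 4.0.16 (R 4.3.3) with a robust quasi-likelihood model, 1 coefficient per group, on 17 libraries. Replicate 1 of soft, high AHA, whose ERCC share was 1.36 to 1.38% (Wilson 95% interval, counting error only), was not fitted, because the study discarded libraries with a high ERCC share. P-values were adjusted by Benjamini-Hochberg over 13438 genes, with calls at an adjusted p under 0.05. Standard errors came from the F statistic. The biological coefficient of variation was 5.35%. For 7 library measures, an exact permutation test (SciPy 1.17.1, two-sided) was used, adjusted over the 7. The fitting code was tested on simulated data.

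Individually named genes were the called genes, the 10 lowest p-values in each direction at a mean of at least 1 CPM, the member of lowest p in each direction of each of 33 lists, 10 core genes, and the 5 lowest p-values of the stiff against soft difference and of the soft comparison. Other list members were named after their values were seen, mostly because their groups did not overlap. The lists, the 34th added later, and the comparison itself were chosen with earlier results of these data known. Lists are described by counts and medians, with no test. Alternatives were RLE scaling, DESeq2 1.42.0, limma-voom (limma 3.58.1), no robust estimation, a minimum of 2 counts, all biotypes, all 18 libraries, only the groups compared, length and GC offsets, and leaving out each library. Soft, mid AHA libraries entered the fit only for the scaling, the gene filter and the spread. Some genes that the naming rule covers, and 1 of the lists, are not reported here.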

Additional observations from a re-analysis of the deposited data

Results flagged for a closer look

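In 6 genes the effect of high against low AHA differed between stiff and soft gels past the threshold (edgeR quasi-likelihood test of the difference). The log2 fold change on stiff minus that on soft gels was -0.529 in Tagln, -0.384 in Cald1, -0.312 in Tpm1, -0.302 in Map1b, -0.473 in Phldb2 and -0.485 in Myof. On stiff gels alone only Map1b was called, and on soft gels alone Tagln, Cald1, Tpm1 and Phldb2 were. The 3 genes with the lowest p-values, Tagln, Cald1 and Tpm1, were called in each of the 11 fits that left out 1 library, of which 2 left soft, high AHA with 1 sample, assumed to vary like the other groups. Over those fits Map1b was called in 4, Phldb2 in 6 and Myof in 4, with adjusted p of up to 0.335, 0.406 and 0.24. When replicate 2 or 3 of soft, high AHA was set aside and replicate 1 kept (chosen after seeing the data), Tagln kept its call and Cald1, Tpm1 and Phldb2 did not (adjusted p = 0.182 and 0.234 for Cald1, 0.101 and 0.069 for Tpm1, 0.36 and 0.234 for Phldb2). With all 18 libraries, Cald1 also lost its call (adjusted p = 0.083). Over the 11 alternatives other than leaving out 1 library, the difference was called in 7 for Map1b, 6 for Phldb2 and 8 for Myof. Groups of 3 libraries were too small to look for single libraries that stand apart in 1 gene.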

How the results depend on the processing

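The count of genes called between high and low AHA on stiff gels was small under every setting and unstable in ratio. It was 1 with RLE scaling, 0 with DESeq2 (596 at an unadjusted p under 0.05), with all biotypes and with length and GC offsets, 2 with limma-voom, 3 with all 18 libraries, 4 without robust estimation, 9 with a minimum of 2 counts and 11 with only the 6 libraries compared. Setting aside soft, high AHA replicate 2 or 3 instead of replicate 1 (chosen after seeing the data) gave 4 each time. Leaving out 1 stiff library gave 0 to 15 genes: 15 without high AHA replicate 1, 7 without low AHA replicate 1, and 0 without replicate 2 or 3 of either group. The cause was not tested. On soft gels the 34 genes became 8 without low AHA replicate 1, 2 without high AHA replicate 2 and 69 without high AHA replicate 3, and 25 to 45 under the other settings. The 6 genes of the difference became 19 with a minimum of 2 counts, 3 with DESeq2 and 2 with soft, high AHA replicate 3 set aside; leaving out 1 library gave 3 (soft, low AHA replicate 1, or stiff, high AHA replicate 2) to 13 (soft, low AHA replicate 2), and 11 without stiff, high AHA replicate 1. RLE put the median of all genes at -0.00045. Leaving out 1 library turned the sign of the median in the integrin, microtubule, intermediate filament, formative, ERK, Wnt, ATF4, DNA methylation, junction, histone, oxidative phosphorylation, SAGA and TIP60, fibroblast, neuroectoderm, trophoblast and two-cell-like lists, in at least 1 of 6 fits each. No paired analysis was possible because the labels carry no replicate numbers shared between groups.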

Other observations

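Of the genes of sterol synthesis, glycolysis, stress responses and the cell cycle, 0 were called. The 22 cholesterol synthesis genes had a median log2 fold change of 0.045 (0.0094 to 0.073 with 1 library left out), with 15 above 0. All high AHA libraries lay above all low ones in 3 of them and below in 2, against 5.34% and 5.53% of all genes. In this list Hmgcs1, which encodes the cytosolic HMG-CoA synthase, was 147.6, 145.1 and 146.7 CPM at low and 137.5, 135.6 and 136.5 CPM at high AHA, without overlap (adjusted p = 0.875, edgeR quasi-likelihood test), and exons of other genes on the opposite strand covered 12.1% of it. Medians were -0.017 over 20 glycolysis genes, -0.027 over 21 ATF4 targets, 0.017 over 16 heat shock genes and 0.0035 over 24 cell cycle genes. With 1 library left out, they ran from -0.030 to -0.0053 (glycolysis), 0.0076 to 0.045 (heat shock) and 0.0023 to 0.024 (cell cycle). Of the 24 cell cycle genes, 1 had all high AHA libraries above all low ones (5.34% of all genes) and 0 below (5.53%). Ccnd1 (cyclin D1) was 127.6, 130.1 and 126.6 CPM at low and 140.1, 137.3 and 142.6 CPM at high AHA, without overlap (0.13 ± 0.066, adjusted p = 0.82), and exons of other genes on the opposite strand covered 23.4% of it.

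Of the genes of translation and respiration, 0 were called on stiff gels. The 83 cytosolic ribosomal protein genes had a median of 0.033 (0.019 to 0.051 with 1 library left out), with 54 above 0. All high AHA libraries lay above all low ones in 5 of them and below in 3, against 5.34% and 5.53% of all genes. Many of these genes have near-identical pseudogenes, so their counts are uncertain. The 77 nuclear genes of oxidative phosphorylation had a median of 0.011, with Ndufs4 (0.31) as the member of lowest p. The 13 mitochondrially encoded genes, a list added after the data were seen, had -0.17 (-0.35 to -0.082 with 1 library left out). The 54 clustered histone genes had a median of 0.014, the 9 DNA methylation genes -0.0026 and the 25 cell junction genes -0.014. The desmosome gene Dsp was 449.3, 468.2 and 468.2 CPM at low and 441.9, 420.6 and 400.2 CPM at high AHA (adjusted p = 0.52), and the tight junction gene Cgn was 170.3, 172.7 and 174.2 CPM and 186.5, 176.3 and 187.9 CPM (adjusted p = 0.875). Medians of the marker lists, whose members are low and imprecise, were -0.19 (primitive endoderm, -0.026 without low AHA replicate 1), -0.23 (mesendoderm, 0.055 with only the groups compared and -0.12 without high AHA replicate 1), 0.21 (neuroectoderm), 0.024 (trophoblast), -0.037 (fibroblast) and -0.021 (two-cell-like).

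By chromosome, the medians of the 20 chromosomes with at least 20 tested genes ran from -0.0195 to 0.0121.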
